A study of Mus musculus with 2 samples.

Results

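The 9 myosin heavy chain genes of striated muscle that were examined in the fetal mouse ear were Myh1, Myh2, Myh3, Myh4, Myh6, Myh7, Myh7b, Myh8 and Myh13. They were chosen as the named heavy chain isoforms that skeletal or heart muscle is known to use, and a probe set was taken where the platform annotation paired it with exactly 1 of them. Each gene had 1 such probe set, so the family comprised 9 of 35557 probe sets and 9 of 19938 named genes.

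Total RNA of the ear at E18.5, shortly before birth, was hybridised to 1 array for wild-type BALB/c fetuses and 1 array for BALB/c fetuses null for both Myf5 and Myod1, which encode the bHLH factors that set cells on the skeletal muscle path. The labels give the genotypes and the age, with no description of the alleles, of the part of the ear taken, or of how many embryos gave RNA. With 1 array per genotype no difference has a replicate check and no p-value is given.

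A myosin heavy chain forms the motor head and the coiled-coil tail of the thick filament, and the isoform present sets how fast a fibre shortens and how much ATP it uses. Fetal skeletal muscle makes the embryonic and perinatal isoforms first, together with the slow isoform in fibres fated to be slow. The adult fast isoforms largely replace the developmental ones after birth. The genes of the embryonic, perinatal, fast and extraocular isoforms stand side by side in 1 chromosomal cluster, and the α- and β-cardiac genes stand as a pair elsewhere.

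Signals are log2 values as deposited. A floor was set at each array's median over all probe sets, which was 5.65 for the wild type and 5.70 for the double knockout. A value below it was raised to it, and a fold against a raised value is a bound, written "at least". Both arrays covered a similar range, 0.81 to 13.27 for the wild type and 0.75 to 13.26 for the double knockout. Probe sets differ in affinity, so the level of 1 isoform was not set against that of another. Of 13 inner ear markers, 9 were above the floor on at least 1 array, as were 12458 of all 19938 named genes. That count is near the share over all genes, so it does not check the labelled tissue. Oc90, which makes up much of the organic part of otoconia, had wild-type and double-knockout signals of 11.28 and 11.26. The hair cell transcription factors Pou4f3 and Gfi1 were below the floor on both arrays, and Atoh1, another such factor, read 6.17 on both.

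The promoters of 5 genes of the skeletal cluster and that of the slow isoform are shown because these genes include each isoform that was lower in the double knockout. Each runs from 250 bases before to 50 bases after an annotated gene start, from RefSeq on GRCm38.p6, 5′ to 3′ on the gene's strand. Capitals mark matches to 3 motifs. The E-box, CANNTG, is the core that MYOD1 and MYF5 bind and reads alike on both strands. MCAT, CATTCC, is the motif of the TEAD factors, searched on both strands. The MEF2 motif, searched on both strands, belongs to the MEF2 factors that act with the myogenic factors.
Myh3, chr11:67078050-67078349, plus strand: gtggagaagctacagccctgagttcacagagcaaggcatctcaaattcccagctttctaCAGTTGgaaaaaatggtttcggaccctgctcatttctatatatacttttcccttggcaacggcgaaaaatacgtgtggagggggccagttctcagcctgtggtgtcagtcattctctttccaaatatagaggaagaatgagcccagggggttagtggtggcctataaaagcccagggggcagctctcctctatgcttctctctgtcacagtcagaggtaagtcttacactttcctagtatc
Myh8, chr11:67276874-67277173, plus strand: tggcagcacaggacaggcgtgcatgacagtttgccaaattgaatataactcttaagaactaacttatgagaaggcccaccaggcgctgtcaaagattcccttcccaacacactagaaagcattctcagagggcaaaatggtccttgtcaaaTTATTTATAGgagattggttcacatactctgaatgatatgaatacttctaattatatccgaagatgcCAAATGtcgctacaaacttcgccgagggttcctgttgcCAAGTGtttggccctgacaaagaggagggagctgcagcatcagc
Myh2, chr11:67170777-67171076, plus strand: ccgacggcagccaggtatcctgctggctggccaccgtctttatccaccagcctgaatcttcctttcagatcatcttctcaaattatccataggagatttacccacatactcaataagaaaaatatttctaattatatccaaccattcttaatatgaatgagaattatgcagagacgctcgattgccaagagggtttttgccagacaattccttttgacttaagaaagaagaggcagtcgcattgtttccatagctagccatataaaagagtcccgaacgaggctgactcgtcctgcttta
Myh1, chr11:67199852-67200151, plus strand: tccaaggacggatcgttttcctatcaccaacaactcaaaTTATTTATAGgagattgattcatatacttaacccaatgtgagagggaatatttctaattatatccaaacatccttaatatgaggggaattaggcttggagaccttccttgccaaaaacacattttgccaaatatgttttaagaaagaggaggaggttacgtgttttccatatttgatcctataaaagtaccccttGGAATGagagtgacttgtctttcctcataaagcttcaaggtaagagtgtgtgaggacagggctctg
Myh4, chr11:67237562-67237861, plus strand: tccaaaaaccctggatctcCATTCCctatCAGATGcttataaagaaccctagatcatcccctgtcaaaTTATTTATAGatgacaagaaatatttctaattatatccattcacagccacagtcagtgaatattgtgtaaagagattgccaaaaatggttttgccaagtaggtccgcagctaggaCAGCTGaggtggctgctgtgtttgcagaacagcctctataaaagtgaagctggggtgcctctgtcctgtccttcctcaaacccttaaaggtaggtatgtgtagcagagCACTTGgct
Myh7, chr14:54994500-54994799, minus strand: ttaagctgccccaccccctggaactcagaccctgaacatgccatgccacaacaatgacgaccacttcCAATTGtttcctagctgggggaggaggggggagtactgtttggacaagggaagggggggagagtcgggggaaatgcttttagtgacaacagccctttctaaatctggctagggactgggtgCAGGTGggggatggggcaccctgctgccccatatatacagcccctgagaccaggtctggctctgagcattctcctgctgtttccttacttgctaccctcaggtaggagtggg

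Of the 9 genes, 7 had at least 1 E-box in a promoter of this length, and 72.3% of all 32851 promoters in the RefSeq table did. Myh1 and Myh2 had none in these windows. MCAT was found for 4 of the 9 genes (Myh1, Myh4, Myh6 and Myh7) and in 14.7% of all promoters. For Myh7 it lay in the second of its 2 listed promoters, which is not printed. The MEF2 motif was found for 3 of the 9 genes (Myh1, Myh4 and Myh8) and in 3.19% of all promoters. Its 3 matches were the same letters, TTATTTATAG, within a stretch that these promoters share, so they are not separate finds. The matches in the members' promoters did not overlap one another, with 0 overlaps counted. A match describes the letters and is not a bound site.

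The promoters of Myh1, Myh2, Myh4 and Myh8 also held a run of 14 identical bases, TTCTAATTATATCC, in the same orientation. It was noticed in the sequences and was the longest run common to these 4. Of 32851 promoters, searched on both strands, 4 held it, and these were the same 4 genes. The Myh3, Myh13, Myh6, Myh7 and Myh7b promoters did not hold it. It is shown in capitals with 20 bases on each side, because it sets these promoters apart by sequence from those of the other isoforms.
Myh8, chr11:67277050-67277103, plus strand: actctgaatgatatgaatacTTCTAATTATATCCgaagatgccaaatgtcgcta
Myh2, chr11:67170882-67170935, plus strand: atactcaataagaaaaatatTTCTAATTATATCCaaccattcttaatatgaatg
Myh1, chr11:67199922-67199975, plus strand: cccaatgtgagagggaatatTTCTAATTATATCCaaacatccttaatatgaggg
Myh4, chr11:67237634-67237687, plus strand: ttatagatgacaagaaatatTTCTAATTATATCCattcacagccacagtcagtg

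The run began 160 bases before the annotated start in Myh1, 158 before it in Myh4 and 125 before it in Myh2, but 54 before it in Myh8. In Myh1, Myh4 and Myh8 a MEF2 match lay upstream of the run, beginning 211, 182 and 99 bases before the start. Set beside the array values given next, Myh1, Myh2 and Myh8, which hold the run, were above the floor in the wild type. Myh4, which also holds it, was not, and Myh3 and Myh7, which lack it, were.

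**Figure D1:**
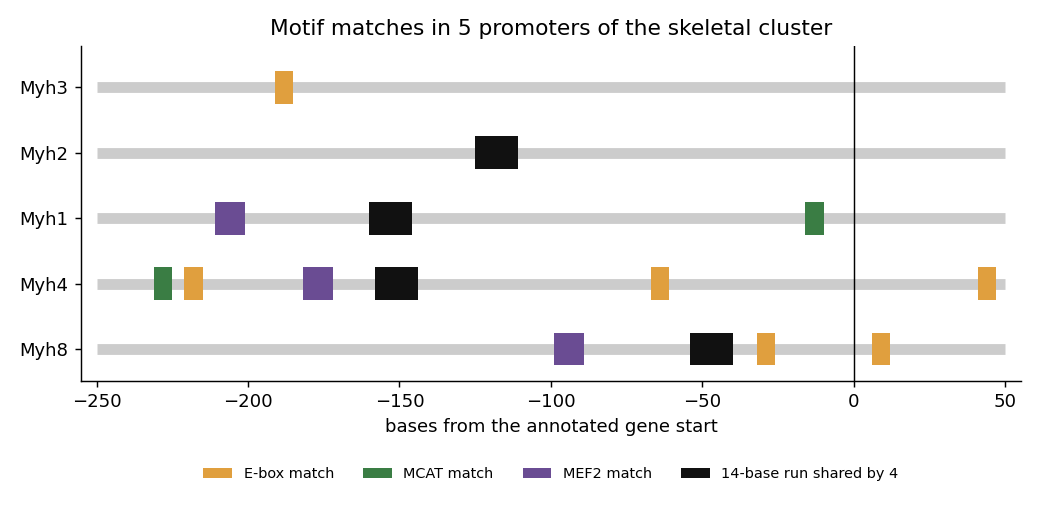
Motif matches in the promoters of 5 genes of the skeletal myosin cluster, by distance in bases from the annotated gene start (vertical line). Grey bars are the 300 bases searched, coloured blocks the matches, and black blocks the 14-base run that Myh1, Myh2, Myh4 and Myh8 share and Myh3 lacks; it begins 54 bases before the start in Myh8 and 125 to 160 bases before it in the others.

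The embryonic, perinatal, 2 of the 3 fast, and the slow isoforms fell by at least 2-fold in the double-knockout ear. These were 5 of the 9 genes, where 1.07% of all 19938 named genes were at least 2-fold lower, or 1.71% of the 12458 above the floor on at least 1 array. None of the 9 was at least 2-fold higher, where 0.482% of those 12458 genes were. All 5 were above the floor in the wild type and below it in the double knockout, a state that 450 genes, or 2.26% of all named genes, shared. The other 4 (Myh4, Myh6, Myh7b and Myh13) were below the floor on both arrays, so no fold is given for them. No member was above the floor in the double knockout, where the 9 signals ran from 3.53 to 5.29. In whole-tissue RNA, fewer muscle cells and less RNA per cell cannot be told apart.

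**Figure D2:**
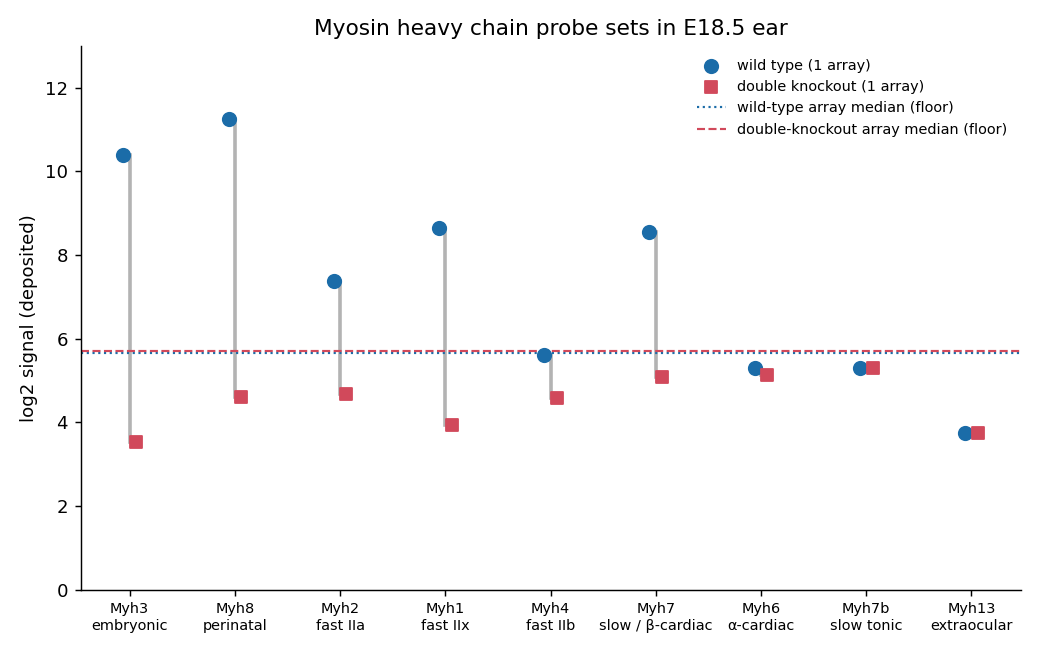
Log2 signal of the 9 myosin heavy chain probe sets on the wild-type array (circles) and the double-knockout array (squares), 1 array each, with lines at the array medians used as the floor. Myh3, Myh8, Myh2, Myh1 and Myh7 stand at 7.37 or more in the wild type and all 9 genes stand at 5.29 or less in the double knockout.

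The developmental isoforms had the largest bounds. Myh8 (probe set 10377148), the perinatal isoform, had a signal of 11.26 in wild-type ear against 4.60 in double-knockout ear, at least 47.2-fold lower. Its wild-type signal lay above 98.9% of the probe sets on that array, and its double-knockout signal above 33.0% of them. Myh3 (probe set 10377018), the embryonic isoform and the first heavy chain that most skeletal fibres make, read 10.39 and 3.53, at least 25.7-fold lower. It passed from above 97.4% of the probe sets to above 17.2% of them. These were the 2 members whose bounds reached 16-fold, where 0.145% of all named genes were as low after flooring. On deposited values, with no floor, Myh1 was 25.8-fold lower as well. The bounds of Myh8 and Myh3 stop at the floor, so they do not rank the loss of one isoform against that of the other.

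Of the 3 adult fast isoforms, 2 were above the wild-type floor. Myh1 (probe set 10377087), the IIx isoform, had signals of 8.64 and 3.95 in wild-type and double-knockout ear, at least 7.66-fold lower. Myh2 (probe set 10377055), the IIa isoform, read 7.37 and 4.69, at least 3.17-fold lower. Both were clearly above the wild-type floor of 5.65. Myh4 (probe set 10377117), the IIb isoform of the fastest fibres, read 5.62 and 4.59. Its wild-type signal was just under the floor, so no fold is given, and its deposited difference was -1.03. Under a 25th percentile floor it counted among the genes lower by 2-fold or more, so its separation from Myh1 and Myh2 rests on the floor.

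Myh7 (probe set 10419934) encodes the heavy chain of slow skeletal fibres, which is also the β-cardiac isoform of the ventricle. Its wild-type signal was 8.56 and its double-knockout signal 5.08, at least 7.27-fold lower. Its bound and that of Myh1 were close, and neither was measured on both sides, so slow and fast isoforms could not be put in order. Of the 5 lower isoforms, 4 had bounds of 4-fold or more, where 0.466% of all named genes were as low after flooring. The bound of Myh2 stopped at the floor short of this, while its deposited values, with no floor, were 6.40-fold apart. The count of 5 moves with the floor: at the 25th percentile of each array it was 6, Myh4 included, and at the 75th it was 4, Myh2 having no value there.

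The remaining isoforms gave no signal above the floor on either array. Myh6 (probe set 10419900), the α-cardiac isoform of the atrium, had signals of 5.29 and 5.14. Myh7b (probe set 10477673), a slow tonic isoform, read 5.29 on both. Myh13 (probe set 10377181), the isoform of extraocular and laryngeal muscle, read 3.75 on both. The deposited values of Myh7b and Myh13 were identical on the 2 arrays, as were those of 1227 probe sets (3.45% of the array), of which 1039 were below the floor on both arrays. A signal below the floor does not show that a transcript was absent.

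**Figure D3:**
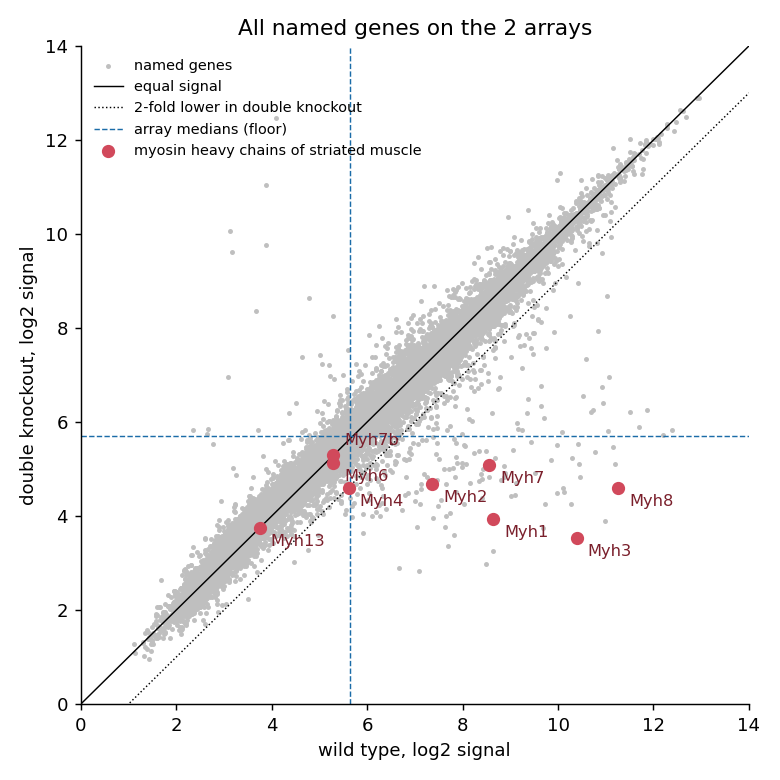
Log2 signal of all 19938 named genes (grey) in the double knockout against the wild type, with the 9 myosin heavy chain genes in red, the line of equal signal, the line of 2-fold lower signal and the array medians used as the floor. Myh1, Myh2, Myh3, Myh7 and Myh8 lie right of the wild-type floor and under the double-knockout floor, and the other 4 members lie below both floors.

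Over all 9 genes the median deposited difference, with no floor, was -2.68, and over all named genes it was 0.03. On these values 6 of the 9 were at least 2-fold lower, Myh4 included, against 1.40% of all named genes. Of the 5 genes above the floor the median floored difference was -2.94, but these passed through the wild type alone, so this value follows in part from the choice. The related isoforms have similar sequences. Whether a probe set also read the transcript of another member was not tested, because probe sequences were not used here.

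The skeletal cluster was set beside the genes that flank it. In RefSeq order the cluster ran Myh3, Myh2, Myh1, Myh4, Myh8 and Myh13, and 4 of these 6 genes were above the floor in the wild type. Of all 19938 named genes, 12458 were above the floor on at least 1 array. The 3 named protein-coding genes on one side were Tmem220, Adprm and Sco1, and those on the other were Gas7, Glp2r and Rcvrn. Of these 6, 4 were above the floor, all within 2-fold, with a median difference of -0.02. Sco1, a mitochondrial copper chaperone next to Myh3, had a wild-type signal of 6.20 and a double-knockout signal of 6.35. Adprm read 6.39 and 6.13. Gas7, beside Myh13, read 7.91 and 7.72, a difference of -0.19. No flanking gene above the floor was lower by as much as 2-fold, where 1.71% of all genes tested were. A count of 0 of 4 is near that share.

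**Figure D4:**
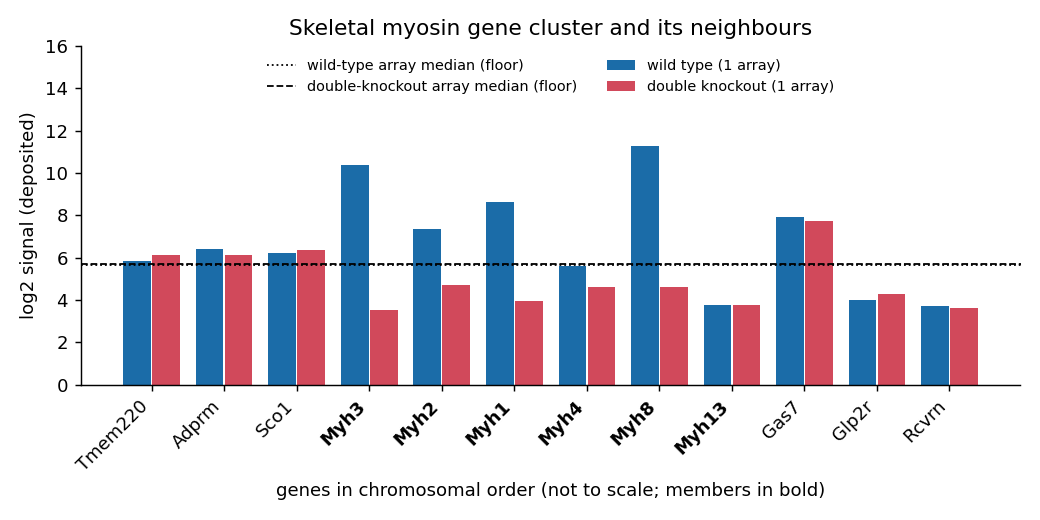
Log2 signal of the 6 clustered myosin heavy chain genes (bold) and the 3 named protein-coding genes on each side, in chromosomal order and not to scale, with 1 bar per array and lines at the array medians. Myh3, Myh2, Myh1 and Myh8 drop from above to below the median, and Gas7, the flanking gene with the highest bars, reads 7.91 and 7.72.

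Other myosin heavy chain genes that could be measured did not share the lower signal. Of 5 examined, Myh15 was below the floor on both arrays (2.51 and 2.77, wild type first). The other 4 exceeded the floor, 0 of them differed by 2-fold or more, and their median was 0.01. Over all genes tested 1.71% were at least 2-fold lower and 0.482% at least 2-fold higher, so a count of 0 of 4 is near those shares. The non-muscle isoforms Myh9 and Myh10, which drive contraction at the cell cortex, read 8.90 and 8.87, and 9.04 and 9.07, wild type first. Myh11, the smooth muscle isoform, read 6.64 and 6.27, a difference of -0.37. Of 8 smooth muscle markers 7 exceeded the floor and 1 was at least 2-fold lower, where 1.71% of all genes tested were. This was Acta2, the smooth muscle actin, which differed by -1.01. Acta2 did not reach 2-fold with the arrays scaled to equal medians of expressed probe sets (-0.99) or with the pseudocount (-0.97). The median of the 7 markers was -0.39, and the summed linear signal of all 8 was 2695 on the wild-type array and 1634 on the other.

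Myh6 and Myh7 are also heart isoforms, so heart muscle markers were examined beside them. Of 16 markers, 9 were below the floor on both arrays, among them the atrial peptide Nppa (4.72 and 4.75, wild type first), the atrial light chain Myl7 (4.83 and 4.45) and the cardiac troponin Tnni3 (5.29 and 5.64). Of the other 7, 3 fell by 2-fold or more, where 1.71% of all genes tested did. These 3 were Actc1, Tnnt2 and Myl2, which fetal or slow skeletal fibres also make. Of the 7, 3 passed through the wild type alone, Myl2 among them, a filter that favours a lower value. Actc1 was 93.2-fold lower and Tnnt2 9.96-fold lower, both above the floor on both arrays, and Myl2 at least 2.67-fold lower. Signals of Actc1 (5.84) and Tnnt2 (5.85) in the double knockout were just above its floor of 5.70. The sizes of their folds therefore depend on how low signals are treated. Their differences were -6.54 and -3.32 as given, -5.63 and -2.51 with the pseudocount, and -5.04 and -1.82 under a 75th percentile floor. Nkx2-5, also above the floor on both arrays, read 5.70 and 6.25, a difference of 0.55, and Hand2 differed by -0.16. Tbx20 (5.85 and 4.97) and Ryr2 (5.65 and 5.59) were above the floor in the wild type alone, Ryr2 only just. Apart from Actc1, Tnnt2 and Hand2, the heart markers named were chosen after their values were seen. The list's median was -0.16 over the 7 above the floor, and its summed linear signal was 6541 on the wild-type array and 619 on the other. Actc1 and Tnnt2 carried most of that sum, and the other 14 markers summed to 617 and 504. The part of heart muscle in the Myh7 signal was not tested beyond these values.

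Partners of the heavy chain in the thick filament were lower with it. Of 10 light chains and light chain kinases of striated muscle, 8 exceeded the floor and each of these 8 was lower by 2-fold or more, with a median of -2.25. Over all genes tested 1.71% were as low and the median was -0.005. Of the 8, 6 passed through the wild type alone, a filter that favours a lower value. The median deposited difference over all 10 genes is therefore also given, -2.92. Myl1, the fast essential light chain, went from 11.86 to 6.26, 48.5-fold lower. Myl4, the embryonic and atrial light chain, read 10.95 and 6.40, 23.4-fold lower. Mylpf, the fast regulatory light chain, read 9.09 and 4.44, at least 10.5-fold lower. The other 2, below the floor on both arrays, were Myl7 (4.83 and 4.45) and Mylk3 (4.83 and 5.55).

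Genes of myosin folding, the thick filament and the M-band were mixed. Of 18 such genes 17 had a probe set and 15 exceeded the floor. Of these 15, 9 were lower by 2-fold or more and 6 within 2-fold, where 1.71% of all genes tested were as low. Their median was -1.58, and 10 of the 15 passed through the wild type alone. Ttn, the titin that spans the sarcomere from Z-disc to M-band, was at least 19.5-fold lower. Mybpc1, the slow myosin-binding protein C, read 10.51 and 6.56, 15.5-fold lower. Unc45b and Smyd1, which fold and assemble myosin in muscle, were at least 2.31-fold and at least 4.48-fold lower, whereas Unc45a, the form in other tissues, read 7.28 and 7.35. Hsp90aa1, the general chaperone that works with both, differed by -0.08, and Smyd2 by -0.03. Unc45a, Unc45b and Smyd1 were chosen after their values were seen.

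Fast and slow partner isoforms were lower on both sides. Of 13, all exceeded the floor, with 11 lower by 2-fold or more and 2 within 2-fold, where 1.71% of all genes tested were as low. Their median was -3.36, and 7 of the 13 passed through the wild type alone. Tnnt3, the fast troponin T, went from 11.69 to 5.90, 55.2-fold lower, and Tpm1, a tropomyosin made in many tissues, was 2.25-fold lower. Chosen after their values were seen, the slow troponins Tnnt1 and Tnni1 were at least 5.47-fold and at least 10.3-fold lower. The 2 within 2-fold were Atp2a2, the slow calcium pump that most cells also use, at -0.23, and Tpm3, at 0.05. Of Tpm3's probe sets the one of highest signal is given.

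**Figure D5:**
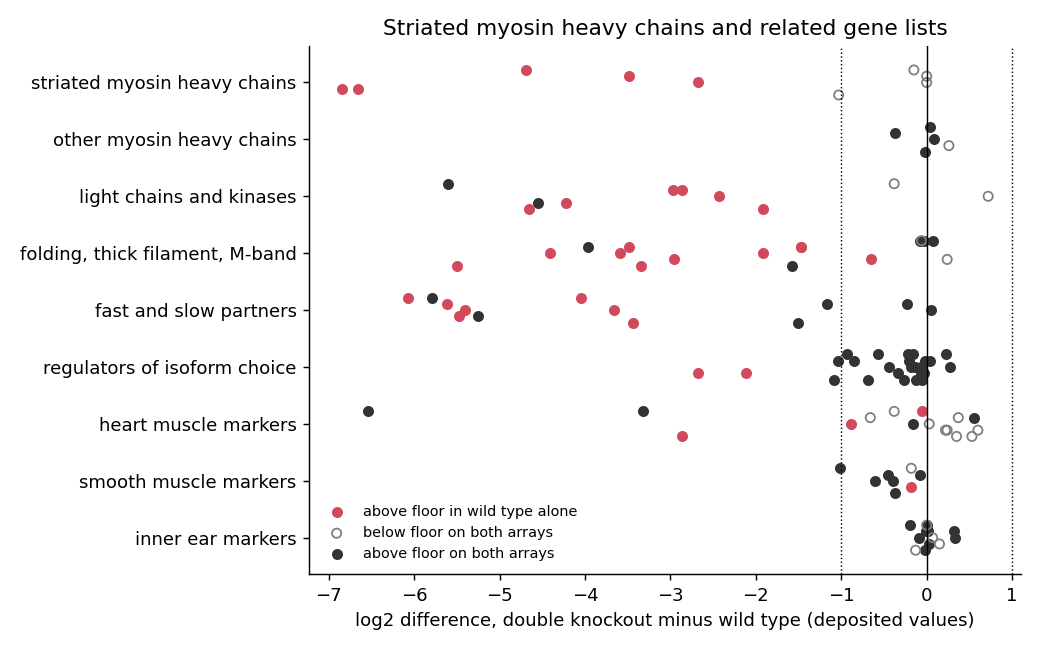
Deposited log2 difference, double knockout minus wild type, for each gene of the striated heavy chains and of 8 related lists, 1 point per gene, with dotted lines at 2-fold. Filled black points were above the floor on both arrays, red points in the wild type alone and open points on neither; the heavy chains, light chains and fast and slow partners spread to the left of the dotted line, while other myosin heavy chains and inner ear markers stay near 0.

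Regulators of myosin isoform choice differed less. Of 26 such genes 25 had a probe set, all above the floor, with 4 lower by 2-fold or more, 0 higher by as much and 21 in between, where 1.71% of all genes tested were as low, with a median of -0.21. Vgll2, a muscle cofactor of the TEAD factors, was at least 3.35-fold lower. Past 2-fold too, and chosen for it after the values were seen, were Mstn, the growth inhibitor myostatin, at least 2.46-fold lower, Tbx15, 2.12-fold lower, and Mef2c, 2.06-fold lower. Mef2c fell short of 2-fold under quantile normalization (-0.99) and with the pseudocount (-0.94), and Tbx15 with the pseudocount (-0.91). Under a 75th percentile floor Vgll2 was at -0.09 and Mstn had no value. Thra, the thyroid hormone receptor through which hormone shifts isoform use, differed by 0.27, Mef2a by -0.16 and Eya1, a transcriptional cofactor, by 0.04. Sox6 and Prox1, which act on fast and slow programmes, differed by -0.07 and -0.12, and were also chosen after their values were seen.

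Of 6 myogenic factors 5 exceeded the floor and 2 were lower by 2-fold or more (0 under a 75th percentile floor), where 1.71% of all genes tested were. The median of the 5 was -0.68. Of these 5, 4 passed through the wild type alone, so the count and this median follow in part from that filter. Over all 6 the median deposited difference was -0.79. Myod1 had signals of 6.95 and 6.38, wild type first, and Myf5 read 5.94 and 5.25. The labels do not say which parts were deleted, so these probe sets are no check of the genotypes. Myf6 read 8.04 and 4.27, at least 5.05-fold lower, and Pax7, a factor of muscle progenitors, 6.38 and 5.50, at least 1.60-fold lower. The other gene past 2-fold was Myog, which drives differentiation, at least 2.51-fold lower and named after its values were seen.

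The microRNAs lodged in heavy chain introns were also on the array. Mir208a, within Myh6, had signals of 2.75 and 3.18, and Mir499, within Myh7b, read 2.93 and 2.88, all below the floor. Mir208b, within Myh7, had no probe set paired with it alone, so Myh7's lower signal could not be set beside it.

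The genes with deposited differences closest to those of each lower isoform were sought among genes above the floor in the wild type. This likeness rests on 2 arrays and on double-knockout values that were mostly below the floor. For both Myh3 (-6.85) and Myh8 (-6.66) they were Atp1b4 (-7.09), Actc1 (-6.54) and Acta1 (-6.46), the last 2 being sarcomeric actins. For Myh1 (-4.69) they were Pgam2 (-4.68), the muscle phosphoglycerate mutase, Mylpf (-4.65) and Hjv (-4.59). For Myh7 (-3.48) they were Myom1 (-3.49), an M-band protein, Tnnt1 (-3.44) and Itgb1bp2 (-3.44). For Myh2 (-2.68) they were Mstn (-2.68), Nexn (-2.69) and Cmya5 (-2.71).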

How the data were processed

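Per the labels, Trizol-extracted total RNA (6 µg) was made into biotin-labelled cRNA for Affymetrix arrays. The deposited table holds log2 values, 1 per probe set and array; the base was read from their range and is not stated. MAS5 is named in the submitters' processing notes, without a version; background correction, normalization and build: not given in the sources used here. How the values were summarised is therefore unsettled. Values were used on their deposited scale.

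Probe sets were named through the platform annotation and matched to RefSeq by Entrez identifier, which keeps Myh14, also an old synonym of Myh7b, apart from it. For a gene with several probe sets, the one of highest mean linear signal was kept. Differences are double knockout minus wild type after raising values to the floor (50th percentile of each array), and genes were counted at 2-fold. Background shares come from all named genes. The rule named every member, the 3 members of highest signal and the largest change of 2-fold or more in each direction per list, and the 3 genes of closest difference per lower isoform; any other gene was picked with its values known. The members and lists were chosen with earlier results of these data known. The calculation (Python 3.11.15, numpy 2.4.6, pandas 2.3.3, statsmodels 0.14.6) was tested on simulated data. The genes changed in the simulation were well above the floor, so bounds against a raised value were not tested there. Alternatives were a 25th or 75th percentile floor, no floor, a pseudocount, 3 scalings, a gene's median probe set value, and 1.5-fold and 3-fold thresholds. The number of arrays limits the precision. Protein sequences were not used here.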

Additional observations from a re-analysis of the deposited data

How the results depend on the processing

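With 1 array per genotype, no replicate could be left out. No paired analysis was possible because there is 1 array per genotype. The count of 5 lower heavy chains ran from 4 to 6 over the alternatives, and was 6 on unfiltered deposited values, an alternative added after seeing the data. Of the 42 heavy chain and list genes past 2-fold, 0 changed sign under the alternatives that gave them a value. These genes were picked as past 2-fold on the same 2 arrays, so a change of sign was unlikely from the start. The 0 is therefore no separate check, and thresholds do not bear on sign. Myh2 had no value with the floor at the 75th percentile, where it lay below it.

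The size of each difference depended on the floor, by construction, since the double-knockout signals lay below it. Over the alternatives Myh3 ranged from -6.85 to -3.04, Myh8 from -6.66 to -3.91, Myh1 from -4.69 to -1.29, Myh7 from -3.48 to -1.21 and Myh2 from -2.68 to -1.47. The share of genes at least as far down was 3.62% at 1.5-fold and 0.963% at 3-fold.

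Medians here are over the genes above the floor in question, so the genes behind them change with it. Under a 75th percentile floor, medians were -2.16 for the heavy chains, -1.24 for light chains, -0.99 for folding and thick filament genes, -1.71 for fast and slow partners, -3.43 for the 2 heart markers left, Actc1 and Tnnt2, and -0.19 for the 1 cluster neighbour left, Gas7. Genes at least 2-fold lower then numbered 3 light chains, 4 folding and thick filament genes, 2 regulators (Mef2c and Tbx15) and 0 myogenic factors, of which 1 was left.

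With deposited values for the genes above the 50th percentile on at least 1 array, the medians were -4.69 for the 5 heavy chains (-2.68 over all 9), -3.60 for light chains, -1.92 for folding and thick filament genes, -0.88 for myogenic factors, -4.05 for partners and -0.88 for heart markers. With the pseudocount they were -2.73, -2.0, -1.03, -0.45, -2.66 and -0.37 in that order, with 2 regulators and 0 smooth muscle genes at least 2-fold lower. With the floor at the 25th percentile, light chains were at -2.92 and partners at -4.05. With equal medians of expressed probe sets, 0 smooth muscle genes were at least 2-fold lower, because Acta2 then differed by -0.99 and not by -1.01.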
